A study of Homo sapiens with 6 samples.

Results

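The genes that make glutathione, bring in the cystine it is made from, reduce it again and take it apart were compared between KYSE70 and NRF2null-KYSE70. They are GCLC, GCLM, GSS, GSR, SLC7A11, SLC3A2, GGT1, GGCT, OPLAH and CHAC2. They were chosen by symbol for their known roles, with earlier results of these data known. Each matched 1 row of the deposited table, and so 10 of 58884 genes are described. KYSE70 is an established line of human esophageal squamous cell carcinoma (ESCC) that carries a mutant NFE2L2, the gene of the transcription factor NRF2. NRF2null-KYSE70 was derived from it by cutting NFE2L2 with CRISPR-Cas9 and growing out 1 edited clone, so a difference between the groups is one between this clone and its parent. RNA from untreated cells of both lines, grown in the same medium, was sequenced with 3 libraries per line, and nothing in the labels says that the libraries of a line came from separate cultures. The p-values therefore measure the spread between these libraries, which may be technical. Values are normalized counts, that is, reads of a gene over the size factor of its library, and libraries are numbered by their order in the table.

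The libraries held between 52072801 and 63975313 reads assigned to genes. The 6 epithelial markers checked had values from 564 to 213140 in every library. They were KRT5, KRT6A, KRT17 and TP63 of squamous epithelium, and EPCAM and CDH1, which mark epithelium more generally. Their summed level was 297792 to 304262 in KYSE70 and 229439 to 239162 in NRF2null-KYSE70, with 2 lower and 4 higher. The 9 markers of fibroblasts, leukocytes and endothelium summed to between 1176 and 1333 in KYSE70 and between 520 and 680 in NRF2null-KYSE70. Of these, COL1A2 and DCN were at 0 in every library, and COL1A1 gave most of the sum, with means of 1232 and 554. PDGFRB, also a fibroblast marker, went the other way, with 0 in every KYSE70 library and 12.2, 14.7 and 16.0 in NRF2null-KYSE70. PTPRC, a leukocyte marker, had means of 0.351 in KYSE70 and 43.6 in NRF2null-KYSE70. Their part in the results was not tested. The mRNA of the edited gene, NFE2L2, was present in the clone at 61.4% of the parental level, so its amount does not show whether the protein was lost. By Sanger sequencing the paper found a frameshift and a premature stop codon in NFE2L2 of the clone. Its Western blot had a faint, smaller NRF2 band there, and its RT-PCR found transcript variants that encode shorter isoforms. The paper takes the band as most likely a shorter isoform, and it states that loss of NRF2 was incomplete.

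Glutathione is a tripeptide of glutamate, cysteine and glycine and the main small thiol of the cell. Glutamate-cysteine ligase, made of the catalytic subunit GCLC and the modifier subunit GCLM, joins glutamate to cysteine in the limiting step, and GSS adds glycine. Cysteine is mostly taken in as cystine by the exchanger xCT, in which SLC7A11 is the transporting light chain and SLC3A2 the heavy chain that carries it to the membrane. GSR reduces oxidized glutathione with NADPH. GGT1 opens glutathione outside the cell, CHAC2 opens it in the cytosol, GGCT turns gamma-glutamyl peptides into 5-oxoproline, and OPLAH returns 5-oxoproline to glutamate. NRF2 is known to activate several of these genes through antioxidant response elements, and ATF4 is known to activate genes of amino acid supply through C/EBP-ATF response elements.

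Promoter sequences are shown for the ligase subunits and the heavy chain, because these genes carried the largest fall, a smaller fall and a rise. They came from RefSeq on GRCh38.p14, run from 250 bases before to 50 bases after an annotated start, and are written 5′ to 3′ along the gene. The letters TGACNNNGC, the core of the antioxidant response element, and TGATGNAA, a C/EBP-ATF response element, were searched on both strands, and capitals mark the matches. The 3 windows lie at chr6:53545052-53545351 on the minus strand for GCLC, at chr1:93909381-93909680 on the minus strand for GCLM and at chr11:62881449-62881748 on the plus strand for SLC3A2.
GCLC: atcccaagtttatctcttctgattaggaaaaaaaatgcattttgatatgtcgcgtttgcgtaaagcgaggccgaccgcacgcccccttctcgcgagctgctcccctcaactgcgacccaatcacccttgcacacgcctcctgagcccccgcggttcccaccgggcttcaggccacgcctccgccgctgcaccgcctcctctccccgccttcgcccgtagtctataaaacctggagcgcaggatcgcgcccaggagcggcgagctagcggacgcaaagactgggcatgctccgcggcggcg
GCLM: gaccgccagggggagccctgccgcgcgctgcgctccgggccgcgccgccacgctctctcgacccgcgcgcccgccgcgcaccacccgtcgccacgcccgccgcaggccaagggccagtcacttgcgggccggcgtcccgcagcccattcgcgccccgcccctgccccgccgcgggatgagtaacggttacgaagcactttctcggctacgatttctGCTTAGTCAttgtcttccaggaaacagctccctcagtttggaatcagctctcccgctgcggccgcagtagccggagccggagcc
SLC3A2: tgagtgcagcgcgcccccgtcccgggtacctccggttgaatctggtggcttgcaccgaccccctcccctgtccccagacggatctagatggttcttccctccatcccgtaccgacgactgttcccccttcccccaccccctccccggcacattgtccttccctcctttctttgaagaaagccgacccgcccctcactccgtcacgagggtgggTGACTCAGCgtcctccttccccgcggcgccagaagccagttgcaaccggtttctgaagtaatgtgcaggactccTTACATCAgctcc

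The GCLC window held neither motif. The GCLM window held TGACTAAGC on the strand opposite to the gene, 34 to 26 bases before the start. The SLC3A2 window shown is 1 of 3 for this gene, and the other two, 1 of them at the 5′ end of the gene, held neither motif. It held TGACTCAGC on the strand of the gene, 37 to 29 bases before the start, and this match contains TGACTCA, the AP-1 motif. The same window held TGATGTAA on the opposite strand, 38 to 45 bases after the start. Promoter windows were matched for 5 of the 10 genes, with 9 windows in all, and 3 of the 9 held TGACNNNGC. The 9 windows are not independent, because several belong to the same gene and the 2 of CHAC2 overlap over most of their length. In addition to the matches above, 1 of the 2 GGT1 windows held TGACCCAGC on the opposite strand. Among 35116 RefSeq promoter windows of the same length, 13.3% held TGACNNNGC, 3.62% held TGATGNAA and 4.95% held TGACTCA. A match describes letters only, and the absence of one in these 300 bases says nothing of elements farther away.

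All 10 genes had a mean of at least 10 normalized counts and were among the 15994 genes tested with limma on log2(normalized count + 1). At a Benjamini-Hochberg adjusted p under 0.05, 6 were lower in NRF2null-KYSE70 (GCLC, GSR, GCLM, SLC7A11, CHAC2 and GSS), 2 were higher (SLC3A2 and OPLAH), and GGT1 and GGCT did not pass. Over all genes tested, 28.3% were lower and 29.3% were higher by the same rule, so 57.6% passed in one direction or the other. The median log2 fold change was -0.39 over the 10 genes and -0.01 over all genes tested. GCLC was the 1 gene of the 10 that also passed the study's fold cut-off of at least 1 on the log2 scale, and it was lower. Of all genes tested, 14.7% passed both, 7.43% lower and 7.23% higher. No library of one line fell within the range of the other for 9 of the 10 genes, 7 lower and 2 higher. Among all genes tested this held for 63.4%, 31.3% lower and 32.1% higher. In bulk RNA, fewer cells that express a gene and less RNA per cell cannot be told apart.

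**Figure D1:**
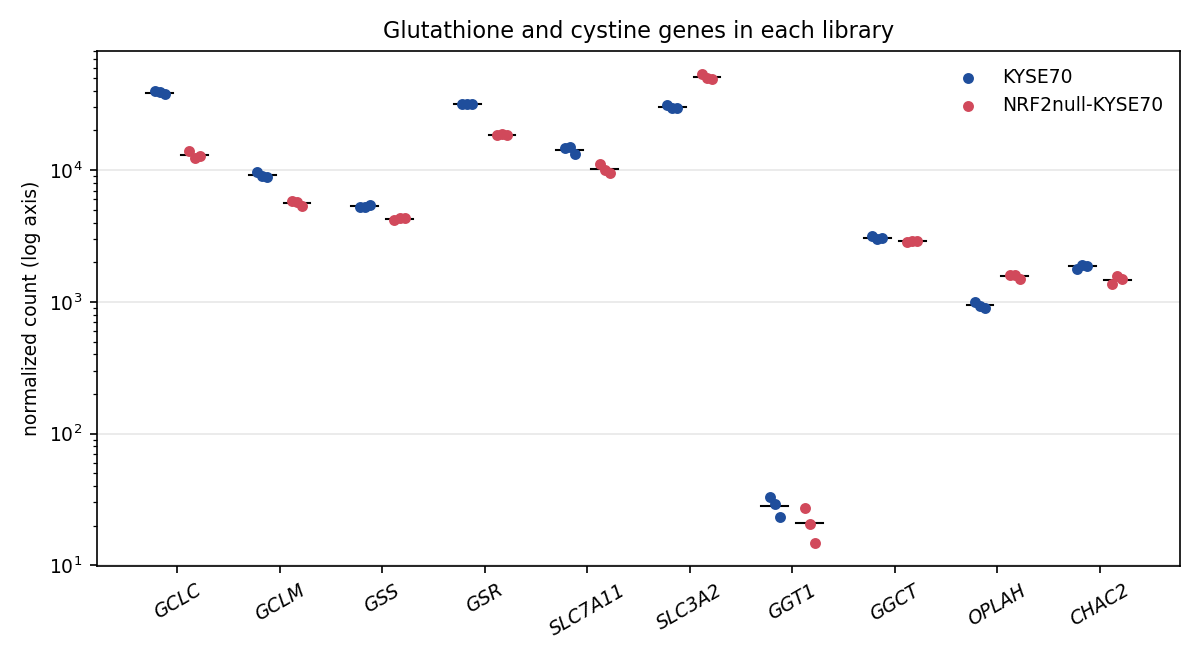
Normalized counts (log axis) of the 10 genes in each library, with KYSE70 in blue and NRF2null-KYSE70 in red, and a bar at the mean of 3 libraries. Red points lie below all blue points for GCLC, GCLM, GSS, GSR, SLC7A11, GGCT and CHAC2 and above them for SLC3A2 and OPLAH, whereas the groups overlap for GGT1.

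The RNAs of the subunits of glutamate-cysteine ligase were both lower in NRF2null-KYSE70, and by different amounts. GCLC (ENSG00000001084, hg38 chromosome 6, 53497341 to 53616970) had 39538, 38974 and 37552 normalized counts in KYSE70 and 13907, 12286 and 12695 in NRF2null-KYSE70. Every library of the clone was below every parental library. The means were 38688 ± 1024 (SD, n = 3) and 12962 ± 843 (SD, n = 3), so the clone had 33.5% of the parental level. On the log2 scale this was a change of -1.58 (SE 0.052, 95% interval -1.69 to -1.47, adjusted p = 1.03e-10 in limma). Ordered by fold change, GCLC was the 618th lowest of the 15994 genes tested. An lncRNA gene, ENSG00000231683, overlaps GCLC on the same strand, and its mean was 2999 in KYSE70 and 763 in NRF2null-KYSE70. Reads of these overlapping genes cannot be told apart where they share exons, and strand use in the counting was not stated.

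GCLM (ENSG00000023909, chromosome 1, 93885199 to 93909456), whose product lowers the amount of glutamate that the catalytic subunit needs, had 9639, 9013 and 8908 normalized counts in KYSE70 and 5843, 5778 and 5369 in NRF2null-KYSE70. The groups did not overlap here either. The means were 9187 ± 395 (SD, n = 3) and 5663 ± 257 (SD, n = 3), or 61.6% of the parental level. The change of GCLM was -0.70 on the log2 scale (SE 0.052, 95% interval -0.81 to -0.58, adjusted p = 1.7e-07 in limma).

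The balance of the subunit RNAs was compared as the ratio of GCLC to GCLM normalized counts within each library, in which the size factor drops out. The ratio was 4.10, 4.32 and 4.22 in KYSE70 and 2.38, 2.13 and 2.36 in NRF2null-KYSE70. RNA of the catalytic subunit relative to RNA of the modifier subunit was thus lower in every library of the clone. The mean ratio was 4.21 ± 0.111 in KYSE70 against 2.29 ± 0.142 in NRF2null-KYSE70 (SD, n = 3 each), a 1.84-fold fall and a difference of -0.88 on the log2 scale. In a two-sided exact permutation test p was 0.1, the smallest that 3 libraries against 3 allow, so this design could not pass a threshold of 0.05. The ratio of counts is not a ratio of molecules, because the transcripts differ in length. The 40 tested genes nearest on the chromosome had a median log2 fold change of -0.16 for GCLC and 0.25 for GCLM. These medians, opposite in sign, were not subtracted from the ratio.

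GSS (ENSG00000100983, chromosome 20, 34928432 to 34956027), the synthetase of the second step, had 5252, 5287 and 5415 normalized counts in KYSE70 and 4178, 4315 and 4303 in NRF2null-KYSE70. The libraries were tight and did not overlap. The means were 5318 ± 85.8 (SD, n = 3) and 4265 ± 75.8 (SD, n = 3), or 80.2%. For GSS this gave a log2 fold change of -0.32 (SE 0.047, adjusted p = 7.49e-05 in limma). The 40 tested genes nearest to GSS on the chromosome had a median log2 fold change of -0.31, and with this median subtracted GSS was at -0.01 with a limma adjusted p of 0.833, so its call was lost. MYH7B overlaps GSS on the opposite strand, with means of 30.2 and 19.5.

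The RNAs of the chains of the cystine exchanger moved in opposite directions. SLC7A11 (ENSG00000151012, chromosome 4, 138164097 to 138242349), the light chain, had 14731, 14884 and 13186 normalized counts in KYSE70 and 11091, 10040 and 9431 in NRF2null-KYSE70. The lowest parental library was still above the highest library of the clone. The means were 14267 ± 939 (SD, n = 3) and 10187 ± 840 (SD, n = 3), or 71.4%. The change of SLC7A11 on the log2 scale was -0.49 (SE 0.065, 95% interval -0.63 to -0.35, adjusted p = 3.33e-05 in limma).

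SLC3A2 (ENSG00000168003, chromosome 11, 62856004 to 62888880), the heavy chain, also pairs with several other amino acid carriers. It had 31055, 29654 and 29379 normalized counts in KYSE70 and 53490, 50434 and 48765 in NRF2null-KYSE70. Each library of the clone was far above each parental library. The means were 30029 ± 898 (SD, n = 3) and 50897 ± 2396 (SD, n = 3), a ratio of 1.69. SLC3A2 thus rose by 0.76 on the log2 scale (SE 0.049, 95% interval 0.65 to 0.87, adjusted p = 4.48e-08 in limma).

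The ratio of SLC7A11 to SLC3A2 normalized counts was 0.474, 0.502 and 0.449 in KYSE70 and 0.207, 0.199 and 0.193 in NRF2null-KYSE70. Light chain RNA relative to heavy chain RNA was therefore lower in every library of the clone. The mean was 0.475 ± 0.0266 in KYSE70 against 0.1999 ± 0.00702 in NRF2null-KYSE70 (SD, n = 3 each), a 2.37-fold fall and a difference of -1.25 on the log2 scale. The two-sided exact permutation test again gave p = 0.1, the smallest it allows.

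**Figure D2:**
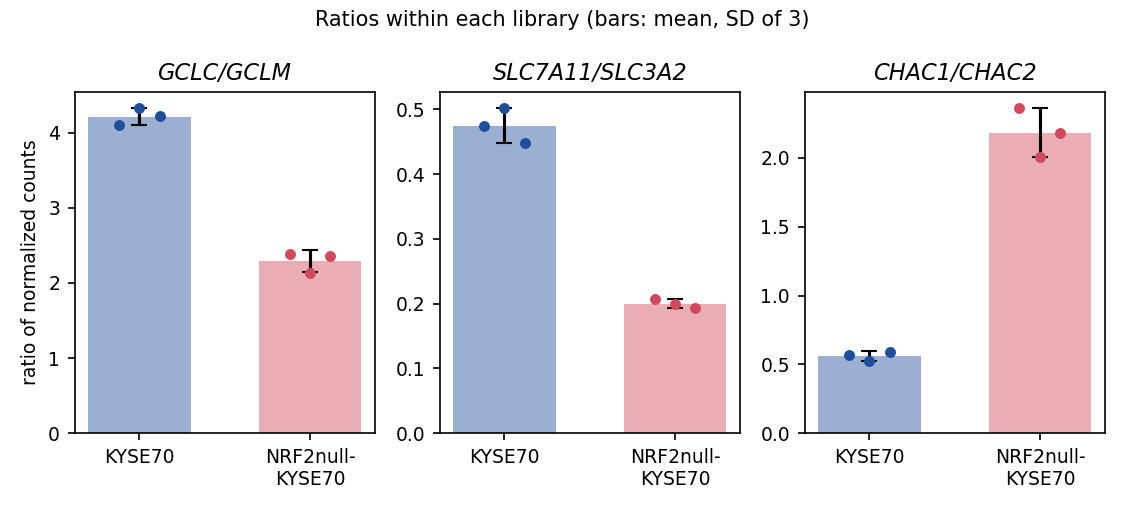
Ratios of normalized counts within each library for GCLC to GCLM, SLC7A11 to SLC3A2 and CHAC1 to CHAC2, with bars from 0 to the mean, error bars of 1 SD and points for the 3 libraries of each line. The first 2 ratios were lower in all libraries of NRF2null-KYSE70 (means 2.29 against 4.21 and 0.1999 against 0.475), and the CHAC1 to CHAC2 ratio was higher (2.18 against 0.560).

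GSR (ENSG00000104687, chromosome 8, 30678066 to 30727846), the reductase that recycles oxidized glutathione, was lower in NRF2null-KYSE70. It had 31747, 31873 and 31712 normalized counts in KYSE70 and 18378, 18716 and 18375 in NRF2null-KYSE70. The libraries of each line lay close together and the lines were well apart. The means were 31777 ± 84.7 (SD, n = 3) and 18489.5 ± 196 (SD, n = 3), or 58.2%. In log2 units GSR changed by -0.78 (SE 0.041, 95% interval -0.87 to -0.69, adjusted p = 7.02e-09 in limma). Its 40 nearest tested genes had a median of -0.44, and with this subtracted GSR was at -0.34 (adjusted p = 1.82e-05 in limma).

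Of the 4 genes that open glutathione or handle its gamma-glutamyl products, CHAC2 was lower, OPLAH was higher, and GGCT and GGT1 did not pass. CHAC2 (ENSG00000143942, chromosome 2, 53767804 to 53775196), the slow and constitutive cytosolic enzyme, had 1788, 1900 and 1884 normalized counts in KYSE70 and 1367, 1561 and 1493 in NRF2null-KYSE70. The groups did not overlap, and the clone had 79.3% of the parental level. The means were 1857 ± 61.0 (SD, n = 3) and 1474 ± 98.4 (SD, n = 3), and the log2 difference was -0.34 (SE 0.068, adjusted p = 0.000988 in limma). ASB3 overlaps CHAC2 on the opposite strand, with means of 45.8 and 51.4.

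OPLAH (ENSG00000178814, chromosome 8, 144051266 to 144063965) had 989, 929 and 901 normalized counts in KYSE70 and 1593, 1591 and 1498 in NRF2null-KYSE70. All libraries of the clone were above those of the parent. The means were 939 ± 45.1 (SD, n = 3) and 1561 ± 54.4 (SD, n = 3), a ratio of 1.66. OPLAH rose by 0.73 on the log2 scale (SE 0.070, 95% interval 0.58 to 0.88, adjusted p = 1.74e-06 in limma). The 40 nearest tested genes were higher as well, with a median of 0.40, and after subtraction OPLAH was at 0.33 (adjusted p = 0.00145 in limma).

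GGCT (ENSG00000006625, chromosome 7, 30496621 to 30504841) had 3177, 2982 and 3037 normalized counts in KYSE70 and 2828, 2908 and 2901 in NRF2null-KYSE70. The groups did not overlap, yet the gap between them was small. The means were 3065 ± 100.2 (SD, n = 3) and 2879 ± 44.5 (SD, n = 3), with a log2 fold change of -0.09 (95% interval -0.20 to 0.02, adjusted p = 0.162 in limma). GGCT passed after subtraction of the median of its 40 nearest tested genes, which was 0.16, at -0.25 (adjusted p = 0.00148 in limma), and also when libraries were scaled by total reads, at -0.17 (adjusted p = 0.0165 in limma).

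GGT1 (ENSG00000100031, chromosome 22, 24594811 to 24629005) was close to the floor of the test. Its normalized counts were 32.9, 29.0 and 23.2 in KYSE70 and 27.4, 20.6 and 14.8 in NRF2null-KYSE70, from 91 and 61 reads in all. The groups overlapped, and the log2 fold change of -0.45 had a 95% interval from -1.28 to 0.38 (adjusted p = 0.339 in limma), so a difference was not detectable at this depth. Reads could also be split among related genes, as GGT1 has near-identical copies. In the family, GGT7 had 21 reads in KYSE70 and 46 in NRF2null-KYSE70, and each of the others listed had at most 7 in either line.

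The genome of a clone can differ from that of its parent over whole regions, so each gene was set beside the 40 tested genes nearest to it on its chromosome. The subtracted median was taken as a value without error. All p-values and calls after subtraction, here and above, therefore leave out its uncertainty. The neighbours of GCLM had a median log2 fold change of 0.25, opposite in sign to the fall of GCLM, which was at -0.95 after subtraction (adjusted p = 1.21e-08 in limma). GCLC was at -1.42, SLC7A11 at -0.48, CHAC2 at -0.39 and SLC3A2 at 0.82 after subtraction, and all 4 kept adjusted p-values under 0.05 in limma. The neighbours' median was -0.16 for GCLC and -0.006 for SLC7A11, with the sign of the gene in both. The neighbours of GSR, GSS and OPLAH also differed in the same direction as these genes. For GSS the neighbours' median was about as large as its own change, and for GSR and OPLAH it was more than 50% of it. After subtraction 6 of the 10 genes were lower and 2 were higher, with GGCT in the place of GSS. Over all genes with enough neighbours, 25.2% were then lower and 29.0% higher, or 54.2% in all. The part of regional differences in these results was not tested further.

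**Figure D3:**
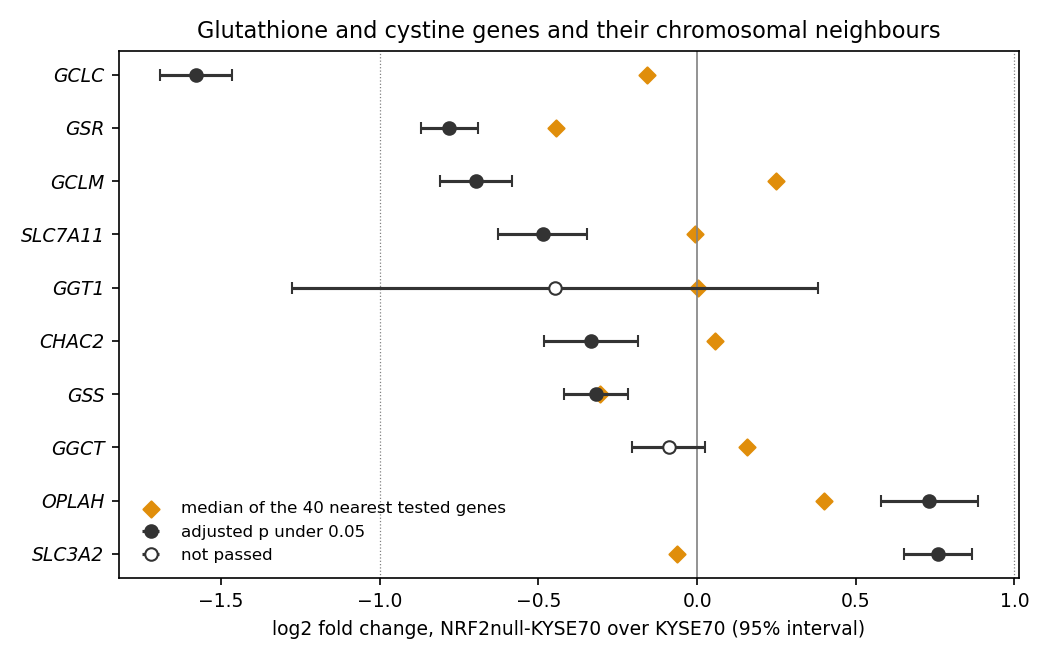
Log2 fold changes (NRF2null-KYSE70 over KYSE70) of the 10 genes with 95% intervals, filled where the limma adjusted p was under 0.05, and the median log2 fold change of the 40 nearest tested genes as diamonds. The dotted lines mark the fold cut-off of 1 in either direction, which only GCLC at -1.58 passed; the diamond of GSS (-0.31) lies on the gene itself, and those of GSR (-0.44) and OPLAH (0.40) lie between 0 and the gene.

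Levels can be compared between genes per length, and normalized counts per kilobase of annotated exons were used. In KYSE70 GSR was highest at 8822 ± 23.5 (SD, n = 3), followed by SLC3A2 at 4698 ± 141 and GCLC at 4489 ± 119. Next came GGCT at 1923 ± 62.8, GCLM at 1693 ± 72.8, SLC7A11 at 1479 ± 97.4 and CHAC2 at 1419 ± 46.6, of which SLC7A11 and CHAC2 overlapped. GSS at 862 ± 13.9, OPLAH at 212 ± 10.2 and GGT1 at 6.49 ± 1.12 were lowest.

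In NRF2null-KYSE70 the order of these per-kilobase levels changed at the top. SLC3A2 was highest at 7963 ± 375 (SD, n = 3), above GSR at 5133 ± 54.4, and GCLC at 1504 ± 97.8 stood below GGCT at 1806 ± 27.9. CHAC2 at 1126 ± 75.1, SLC7A11 at 1056 ± 87.1 and GCLM at 1044 ± 47.4 were not separated by their libraries. GSS, OPLAH and GGT1 were again the lowest, at 692 ± 12.3, 351 ± 12.3 and 4.79 ± 1.44. The order between genes depends on the length used. With the length of the canonical transcript SLC3A2 was highest in both lines, at 15931 in KYSE70 and 27001 in NRF2null-KYSE70, and GCLC stayed above GGCT in NRF2null-KYSE70, at 3425 against 2486.

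Other genes of the pathway were counted in 4 lists by role, and each count is to be read against the 29.3% higher, 28.3% lower and 57.6% in either direction among all genes tested. Of 11 genes of glutathione breakdown, 4 were tested, of which 2 were higher, none was lower and 2 did not pass, with a median log2 fold change of 0.66. A call in 2 of 4 genes is near the 57.6% of all genes tested. CHAC1, the stress-induced relative of CHAC2 that cleaves glutathione quickly, had 1012, 992 and 1114 normalized counts in KYSE70 and 3227, 3137 and 3255 in NRF2null-KYSE70. Its level in the clone was 3.09 times the parental one (log2 fold change 1.63, SE 0.064, adjusted p = 5.13e-10 in limma), with a neighbours' median of 0.33. The other gene that rose was LAP3, a cytosolic aminopeptidase (log2 fold change 0.25, adjusted p = 0.000898 in limma; 0.14 after neighbour subtraction).

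CHAC1 and CHAC2 do the same reaction and differed in opposite directions. The ratio of CHAC1 to CHAC2 normalized counts, chosen after the values were seen and given without a test, was 0.566, 0.522 and 0.591 in KYSE70 and 2.36, 2.01 and 2.18 in NRF2null-KYSE70. The more abundant form by counts was CHAC2 in each parental library and CHAC1 in each library of the clone. The mean ratio rose 3.90-fold, from 0.560 ± 0.0348 (SD, n = 3) to 2.18 ± 0.176 (SD, n = 3).

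The list of cysteine supply also holds genes that use cysteine or its products, or that return homocysteine to methionine. Of its 12 genes, 9 were tested, of which 5 were higher and 2 were lower, with a median of 0.18. GOT1 and MTRR, counted among the higher, and both lower genes, CSAD and MTR, are of these other kinds. Among all genes tested 29.3% were higher and 28.3% lower. The largest rises were in both enzymes of transsulfuration, the route that makes cysteine from methionine. CTH, cystathionine gamma-lyase, had 167, 168 and 161 normalized counts in KYSE70 and 678, 602 and 661 in NRF2null-KYSE70, a ratio of 3.91 (log2 fold change 1.96, SE 0.113, adjusted p = 1.59e-08 in limma). CBS, cystathionine beta-synthase, had 382, 327 and 446 in KYSE70 and 1112, 1113 and 1114 in NRF2null-KYSE70, a ratio of 2.89 (log2 fold change 1.54, SE 0.109, adjusted p = 1.04e-07 in limma). The groups did not overlap for either enzyme, and the neighbours' median was -0.01 for CTH and 0.38 for CBS. CSAD, a later enzyme of the route from cysteine to taurine, fell to 45.1% of the parental level (log2 fold change -1.14, adjusted p = 4.42e-05 in limma), with a neighbours' median of -0.56 and a value of -0.59 after subtraction. MTR, methionine synthase, fell to 75.9% (log2 fold change -0.40, adjusted p = 0.00027 in limma). The count of 5 higher genes was 3 without KYSE70 library 1, without NRF2null-KYSE70 library 2 and when libraries were scaled by total reads.

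Of 10 partners and other carriers of cystine, cysteine and glutamate, 6 were tested, of which 3 were higher and 1 was lower, with a median of 0.30, beside 29.3% higher and 28.3% lower among all genes tested. SLC7A5, the light chain of the large neutral amino acid exchanger and like SLC7A11 a partner of SLC3A2, had 83018, 75063 and 72393 normalized counts in KYSE70 and 177986, 146846 and 145086 in NRF2null-KYSE70. It rose with SLC3A2, by a ratio of 2.04 (log2 fold change 1.02, SE 0.079, adjusted p = 2.2e-07 in limma). SLC7A8, a further light chain that pairs with SLC3A2, fell from 1560 ± 54.2 to 701 ± 43.9 (SD, n = 3; log2 fold change -1.15, adjusted p = 5.22e-08 in limma). The glutamate and cysteine carrier SLC1A1 rose by 0.93 on the log2 scale (adjusted p = 5.81e-06 in limma), and SLC1A4, a carrier of alanine, serine and cysteine, rose by 0.45 (adjusted p = 0.000128 in limma). After neighbour subtraction SLC7A5 was at 1.04, SLC7A8 at -0.93, SLC1A1 at 0.84 and SLC1A4 at 0.32. SLC7A5 and SLC7A8 both passed the fold cut-off, as did 14.7% of all genes tested, whereas 1 gene of the list did without KYSE70 library 3, without NRF2null-KYSE70 library 1, under total scaling and after neighbour subtraction.

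The list of glutathione transport and glutaredoxins held 12 genes, among them ESD, GLO1 and HAGH, which are neither transporters nor glutaredoxins. All 12 were tested, of which 4 were lower (ESD included), 3 were higher (GLO1 included) and 5 did not pass (HAGH included). The median was -0.02, and the calls are near the 57.6% of all genes tested that passed in either direction. The exporters of glutathione and its conjugates differed in direction. ABCC2, an apical export pump, rose from 424 ± 26.8 to 903 ± 72.5 (SD, n = 3; log2 fold change 1.09, adjusted p = 7.8e-07 in limma). ABCC1, a more abundant pump of the same family by counts, fell from 15295 ± 1335 to 9530 ± 1274 (SD, n = 3; log2 fold change -0.69, adjusted p = 1.63e-05 in limma), with a neighbours' median of -0.39 and a value of -0.29 after subtraction. SLC25A40, a mitochondrial carrier related to the glutathione carrier SLC25A39, rose by 0.69 (adjusted p = 9.36e-06 in limma; 0.45 after neighbour subtraction), and the mitochondrial glutaredoxin GLRX2 fell to 77.2% (log2 fold change -0.37, adjusted p = 0.00228 in limma; -0.58 after neighbour subtraction).

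**Figure D4:**
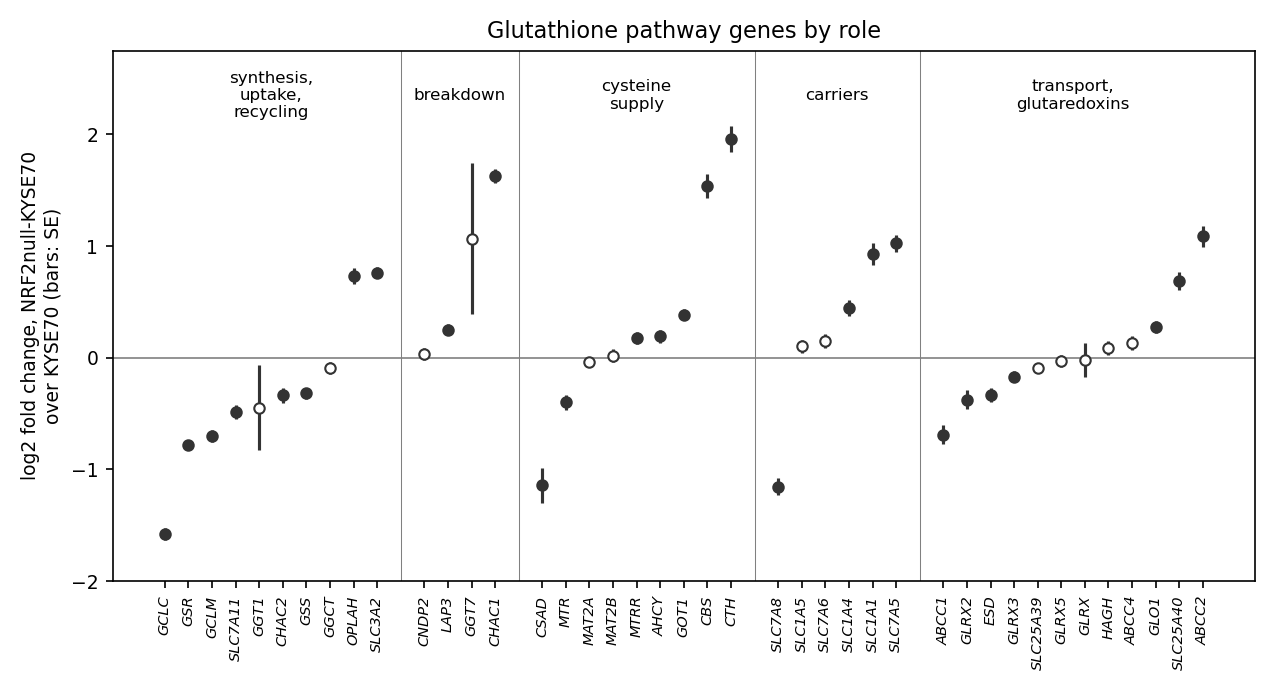
Log2 fold changes (NRF2null-KYSE70 over KYSE70, bars of 1 SE) of the 10 genes and of the tested genes of the 4 lists, ordered within each list, with filled points where the limma adjusted p was under 0.05. The highest points are CTH (1.96), CHAC1 (1.63) and CBS (1.54), and the lowest are GCLC (-1.58), SLC7A8 (-1.15) and CSAD (-1.14).

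Among the factors known to act on these genes, NFE2L2 had 9839, 9906 and 10040 normalized counts in KYSE70 and 5803, 6041 and 6434 in NRF2null-KYSE70 (log2 fold change -0.71, adjusted p = 9.37e-08 in limma). KEAP1, the adaptor that directs NRF2 to degradation, had 58.3% of the parental level in NRF2null-KYSE70 (log2 fold change -0.78, adjusted p = 1.2e-07 in limma). ATF4, the factor of the amino acid response, had 27548, 27768 and 28023 in KYSE70 and 40901, 43184 and 42714 in NRF2null-KYSE70, a ratio of 1.52. Each library of the clone was above each parental library, and the log2 fold change of ATF4 was 0.61 (SE 0.044, adjusted p = 1.22e-07 in limma). These are mRNA levels, and the activity of the factors was not measured in these libraries.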

How the data were processed

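RNA was measured in 6 libraries, 3 of KYSE70 and 3 of NRF2null-KYSE70. According to the methods and the submitters' processing notes, the authors checked reads with FastQC 0.11.5, listed cutadapt 1.12, aligned with STAR 2.6.90c to hg38, assigned them to genes with featureCounts 1.5.1 and normalized with DESeq2. The notes also list mm10, and the methods name RefSeq whereas the table has Ensembl identifiers. Strand use and multi-mapped reads are not given in the sources used here. The values deposited by the authors are a signal in normalized counts. They were whole multiples of the value of 1 read, 0.889 to 1.14, in 100% of cases within a tolerance of 0.1, so reads were recovered for total depth and for the count-based alternatives.

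Fold changes were fitted with limma 3.58.1 in R 4.3.3 (lmFit, eBayes with a trend) on log2(normalized count + 1), which understates changes of low genes, over 15994 genes with a mean of at least 10, with Benjamini-Hochberg adjustment. Ratios were tested by a two-sided exact permutation test. The script was tested on simulated data. Positions and exon lengths came from GENCODE v44 on hg38 and promoters from RefSeq. Genes named were all 10 glutathione and cystine genes, 3 factors, from each list at most 4 genes with the largest changes among those with an adjusted p under 0.05, and genes closest in pattern to GCLC, GCLM and SLC7A11 with a mean of at least 100. These genes, lists and tests were chosen with earlier results of these data known. Overlapping and related genes and the markers are named as checks, and some further genes are named only to say what a list holds.

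Each choice was changed in turn. The pseudocount was set to 0.1 and 5, the filter was removed or raised to a mean of 50, and libraries were rescaled by quantiles, TMM or total reads. The limma trend was dropped, or eBayes was made robust. Recovered reads were tested with edgeR 4.0.16 and DESeq2 1.42.0, each library was left out, the median of the 40 nearest tested genes was subtracted, and other gene lengths were used. The subtraction kept the standard error of each gene and added none for the median. The canonical transcript length was chosen after seeing the data.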

Additional observations from a re-analysis of the deposited data

How the results depend on the processing

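No paired analysis was possible because the columns name the line but not the replicate. Over 18 alternatives, 6 to 7 of the 10 glutathione and cystine genes were lower and 2 were higher, and 1 passed the fold cut-off. Of 179 values for single genes of the 10, none changed sign. GSS lost its call under neighbour subtraction (-0.01, limma adjusted p = 0.833). GGCT gained one under neighbour subtraction (-0.25, limma adjusted p = 0.00148) and total scaling (-0.17, limma adjusted p = 0.0165). GGT1 was left out by the filter at a mean of 50. Neighbour medians were not subtracted from the ratios. With 1 library left out, the log2 difference of the GCLC to GCLM ratio ran from -0.91 to -0.83 and that of SLC7A11 to SLC3A2 from -1.29 to -1.21. Genes past the fold cut-off then numbered 1 to 2 for breakdown and 1 to 2 for carriers, and higher genes on the cysteine supply list numbered 3 to 5. Total scaling gave 3 higher genes on the cysteine supply list and 1 carrier past the fold cut-off, as did neighbour subtraction for carriers (1). The cause was not tested. A mean of 50 left 1511 genes past both thresholds instead of 2344, with fewer genes tested. Per kilobase of the longest transcript, SLC3A2 (10563) and GSR (10474) overlapped in KYSE70, and with the canonical transcript GSS (2786) stood above GGCT (2647). Depth limited GGT1, and 1 clone limits all comparisons.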

Other observations

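The genes whose log2 values, centred over the 6 libraries, lay closest to those of GCLC, GCLM and SLC7A11 were looked up among 11996 genes with a mean of at least 100. The measure was the root mean square difference, and with 6 libraries in 2 groups it mostly reads the difference between the lines. For GCLC they were RCAN1 (0.0303), IFI16 (0.0309) and DPYSL2 (0.0328). For GCLM they were PSD3 (0.0286), IP6K1 (0.0288) and TAOK2 (0.0315), and for SLC7A11 they were DST (0.0239), RALGAPA2 (0.0249) and GAREM1 (0.0288).

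NRF2null-KYSE70 library 1 had the highest value of its line for 6 of the 10 glutathione and cystine genes, whereas 40.8% of all genes tested were highest there. KYSE70 library 1 was also highest of its line for 6 of the 10, against 36.3% of all genes tested.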
